A study of Mus musculus with 92 samples.

Results

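The comparison described here set macrophages carrying a non-targeting control guide (NTC) and grown in 0.016 uM baricitinib against the same cells grown without the drug. Its members are the 4 NTC libraries titled with 0.016 uM and the 3 titled with 0 uM, grouped by those titles, which are 7 of the 33 baricitinib libraries and of the 92 libraries of the series. ER-Hoxb8 cells are mouse myeloid progenitors held immature by an estrogen-dependent Hoxb8, and they become macrophages when estrogen is withdrawn. All 7 libraries came from ER-Hoxb8 cells heterozygous for Cas9, kept for 7 days in medium with M-CSF, and the treated wells received baricitinib at every change of medium. The study used the dose series to ask how a block of interferon signalling acts on macrophages with and without Adar. The dose itself is given in conflicting forms: the titles say 0.016 uM, and the protocol text lists 0.16 uM in its place. Steps between neighbouring titled doses were 26.7-fold, 25-fold and 25-fold, and those of the protocol text were 250-fold, 2.5-fold and 25-fold. The titled dose is used below.

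Type I interferon binds a receptor on the cell surface whose associated kinases, JAK1 and TYK2, phosphorylate transcription factors of the STAT family. These join IRF9, enter the nucleus and switch on interferon-stimulated genes, many of which block viral replication and some of which, such as Usp18, dampen the pathway. Baricitinib inhibits JAK1 and JAK2, and macrophages in culture keep a low level of interferon-stimulated transcripts even without infection.

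Depth was 10.6, 15.1 and 16.4 M estimated counts in the untreated libraries and 6.16, 13.01, 10.8 and 16.5 M at 0.016 uM, so treated replicate 1 was the shallowest. Pairwise correlations of log2 CPM (counts scaled to library size) across the genes tested, which are not independent replicates, lay between 0.958 and 0.979 among the 7 libraries. The cells carried macrophage markers: 13 macrophage identity genes plotted by the study summed to 14136, 15177 and 15042 CPM without drug and 14544, 14703, 14424 and 14522 CPM with it, and Cd14, a co-receptor for lipopolysaccharide, was the most abundant. Csf1r, the M-CSF receptor, measured 10.58, 10.69 and 10.41 log2 CPM without drug and 10.61, 10.67, 10.70 and 10.75 with it. These ranges overlapped. Markers of other cells were scarce: 7 of 7 mast cell and basophil markers, 7 of 9 lymphoid markers and 5 of 6 fibroblast markers had at most 3 counts in each of the 7 libraries.

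Interferon-stimulated genes were lower at 0.016 uM in most cases. Across the 20 interferon-stimulated genes that the study plotted, the mean log2 CPM was 3.35, 3.15 and 3.06 in the untreated libraries and 2.26, 2.30, 2.29 and 2.33 in the treated ones. All 4 treated libraries lay below all 3 untreated libraries. For 13 of the 20 genes the treated libraries were all below the untreated ones, and for 0 of 20 were they all above, against 5.48% lower and 4.99% higher among the 11152 genes tested. The median log2 fold change was -0.81 over the list and -0.01 over all genes tested; 17 of 20 members were below 0. The study plotted these genes for libraries of this series, so the count is not independent evidence of a direction. Without treated replicate 1, the shallowest library, the list's median was -0.62.

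No gene passed the test. In limma, fitted to all 33 baricitinib libraries with one mean for each of 10 groups, 0 of 11152 genes (0%) had an adjusted p below 0.05, whether or not a log2 fold change of at least 2 was required, and 434 had an unadjusted p below 0.05. The count moved with the libraries in the fit and with library weights. With the 17 NTC libraries alone, limma gave 12 genes (0.108%), 2 higher and 10 lower, with 1193 at an unadjusted p below 0.05; with the 7 libraries of the comparison it gave 8 genes (0.0717%), 1 higher and 7 lower (0.0628%); and with library weights it gave 44 genes, 31 higher and 13 lower. All 8 genes of the 7-library fit were among the 12. A log2 fold change of at least 2 was met by 4 genes in each of these 3 fits. With replicate number or library number as a block, also fitted to the 7 libraries, 0 genes passed.

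The spread of interferon-stimulated genes differed between the lines. The residual SD of the 20-gene list had a median of 0.45 log2 units over the 17 NTC libraries and 2.05 over the 16 Adar KO libraries, against 0.21 and 0.31 over all genes tested. Among the Adar KO libraries at 0.4 uM, which are outside the comparison, the list's mean log2 CPM was 1.78, 10.08 and 3.29, and replicate 2 stood apart from the others. Without that library the list's residual SD over the other 32 libraries was 0.50, down from 1.46 over all 33. A fit of those 32 libraries, chosen after seeing the data, gave 17 genes (0.152%), 6 higher and 11 lower (0.0986%), 3 of them with a log2 fold change of at least 2, and 6 of the 17 were among the 12 of the NTC fit.

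**Figure D1:**
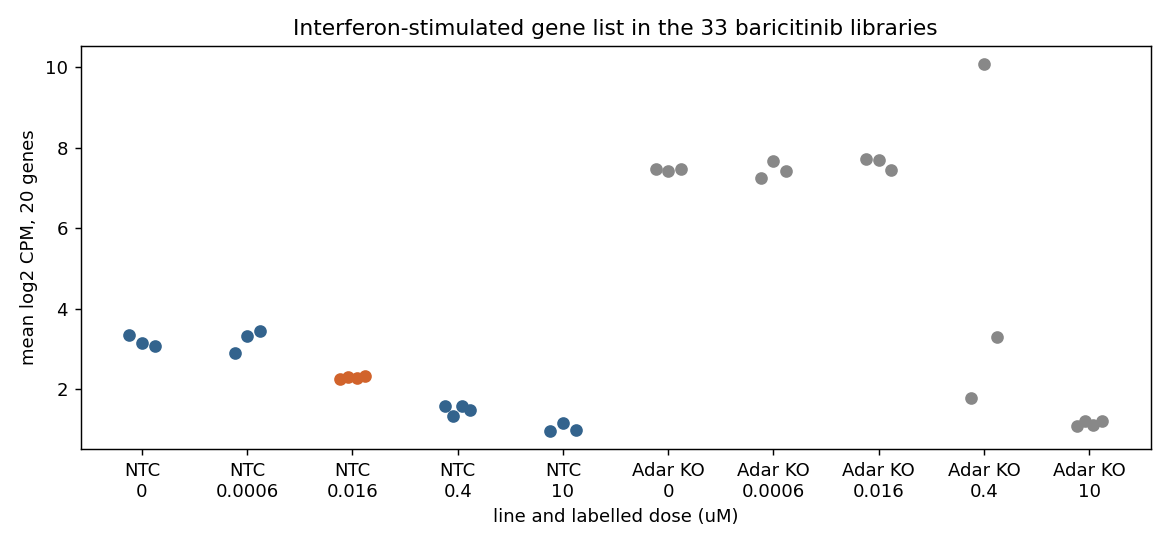
Mean log2 CPM of the 20 interferon-stimulated genes in each of the 33 baricitinib libraries, by line and labelled dose (orange: NTC at 0.016 uM; blue: other NTC; grey: Adar KO). The 4 orange points lie between 2.26 and 2.33, below the 3 untreated NTC points at 3.06 to 3.35, and Adar KO replicate 2 at 0.4 uM reaches 10.08 while the other libraries of its group are at 1.78 and 3.29.

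Usp18, which removes ISG15 from proteins and dampens the interferon receptor, measured 4.14, 3.40 and 3.49 log2 CPM without drug and 1.27, 1.49, 1.67 and 1.23 at 0.016 uM. Every treated library was below every untreated one. The difference was -2.26 log2 units, a level 4.79-fold lower, with a standard error of 1.25 in the 33-library fit (adjusted p = 1.00) and 0.37 in the 17-library NTC fit (adjusted p = 0.0316). Over 26 alternatives its adjusted p ran from 0.0236 to 1.00 and its log2 fold change from -2.40 to -1.95. Oas3, a sensor of double-stranded RNA that makes the activator of RNase L, measured 4.60, 4.36 and 3.99 without drug and 1.93, 2.01, 1.95 and 2.28 with it, again without overlap. The Oas3 difference was -2.27 log2 units (standard error 1.05 over 33 libraries, 0.41 over 17), with an adjusted p of 1.00 in the former fit, 0.0475 in the latter and 0.0121 to 1.00 over the alternatives.

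Slfn1, a Schlafen family gene, measured 4.77, 4.14 and 4.14 log2 CPM without drug and 2.33, 2.27, 2.17 and 2.43 with it. Ly6e, which encodes a membrane protein active against several viruses, measured 9.25, 8.88 and 8.98 without drug and 8.36, 8.32, 8.42 and 8.40 with it. Slfn4, another Schlafen gene, measured 6.20, 5.82 and 5.78 without drug and 4.85, 5.01, 4.89 and 4.96 with it. None of these 3 genes had overlapping groups. Their log2 fold changes were -2.05, -0.66 and -1.01, and each had an adjusted p of 1.00 over 33 libraries, of 0.00124 over the 17 NTC libraries and between these values over the alternatives. When each of the 7 libraries was left out of the NTC fit in turn, Slfn1, Ly6e and Slfn4 were past the limit in 7 of 7 runs, while Usp18 and Oas3 were past it in 0 of 7.

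The other genes past the limit in the 17-library NTC fit were Oas1a, Lgals3bp, Irf9, Slfn8 and Lgals9, which were lower, and Cux2 and Crip1, which were higher. Oas1a, a relative of Oas3, measured 7.05, 6.86 and 6.81 without drug and 5.98, 6.16, 6.14 and 6.02 with it, a difference of -0.83. Irf9, a DNA-binding partner of STAT proteins, measured 6.28, 6.17 and 6.27 without drug and 5.54, 5.58, 5.71 and 5.54 with it, a difference of -0.65. Neither gene's groups overlapped. The log2 fold change was -0.76 for Lgals3bp and -0.48 for Lgals9, which encode a galectin-binding protein and a galectin, and -1.05 for Slfn8. Adjusted p in the NTC fit was between 0.0128 for Oas1a and 0.0475 for Lgals9, and each of the 12 genes had an adjusted p of 1.00 in at least 1 alternative. With each of the 7 libraries left out of the NTC fit in turn, Oas1a was past the limit in 4 of 7 runs, Lgals3bp in 2, Crip1 in 1, and Irf9, Slfn8, Lgals9 and Cux2 in 0. Of the 12, Slfn4, Lgals9 and Crip1 were named after their values were seen.

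Single libraries moved the NTC count. Without untreated replicate 1, 2 or 3 the 17-library fit gave 3, 7 or 5 genes, and without treated replicate 1, 2, 3 or 4 it gave 4, 4, 5 or 3. With a log2 fold change of at least 2 these runs gave 0, 2 or 1 genes for the untreated libraries and 1 for each treated one. The p-values measure the spread between wells of 1 differentiated cell line, not between animals.

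**Figure D2:**
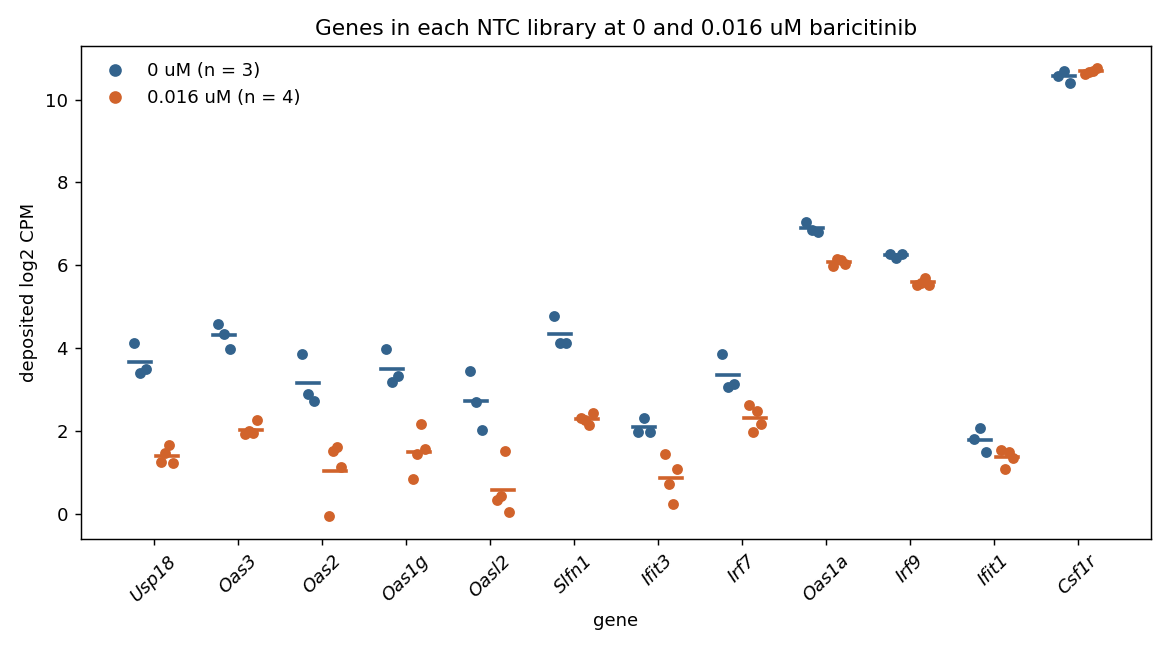
Log2 CPM of 12 genes in each NTC library, with a line at each group's mean (blue: 3 untreated libraries; orange: 4 libraries at 0.016 uM). For Usp18 the treated libraries sit between 1.23 and 1.67 and the untreated ones between 3.40 and 4.14; for Ifit1 and Csf1r the groups overlap.

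Ifnb1, which encodes interferon beta, had at most 3 counts in each of the 7 libraries, so no fold change is given. Of the 3 other ligand genes tested, 2 were lower without overlap and 0 higher, against 5.48% lower and 4.99% higher among all genes tested, with a median log2 fold change of -0.25. They were Il27, at -0.14, 0.28 and -0.28 log2 CPM without drug and -0.66, -0.53, -1.60 and -0.97 with it, and Ebi3, whose product pairs with that of Il27, at 6.81, 6.55 and 6.64 without drug and 6.51, 6.28, 6.41 and 6.45 with it. At 0.0006 against 0 uM, with the same untreated libraries, 2 ligand genes were also lower without overlap, against 7.07% of all genes tested. At 0.016 against 0.0006 uM 0 were lower, against 2.65% of all genes tested. Of 16 receptor genes tested, 1 was higher without overlap (Il10ra, at 0.22) and 1 lower (Il2rg, at -0.33), and the list's median was -0.04. Ifnar1, a chain of the type I interferon receptor, measured 7.82, 7.64 and 7.60 without drug and 7.71, 7.65, 7.57 and 7.63 with it, which overlapped. None of the 4 kinase genes separated the groups: Jak1 measured 7.40, 6.59 and 6.81 without drug and 6.97, 6.97, 7.06 and 6.52 with it, and Jak2 measured 2.92, 3.27 and 3.39 without drug and 2.91, 2.91, 2.74 and 3.17 with it. The kinase list's median was -0.04, and the medians of the kinase and receptor lists changed sign among the alternatives.

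Of 7 STAT genes tested, 3 were lower and 0 higher without overlap, against 5.48% lower and 4.99% higher among all genes tested, at a median log2 fold change of -0.31. Stat2, which enters the nucleus with IRF9, measured 5.24, 4.79 and 4.80 log2 CPM without drug and 4.48, 4.59, 4.35 and 4.71 with it, which did not overlap, a difference of -0.41. Stat3 measured 7.27, 6.24 and 6.62 without drug and 6.80, 6.79, 6.90 and 6.23 with it, and these ranges overlapped. Of 9 feedback inhibitors tested, Usp18 was the only one lower without overlap and 0 were higher; the list's median was 0.04. Socs3, an inhibitor of JAK1 and JAK2, measured 1.20, -0.72 and -0.98 without drug and -0.34, -0.73, -0.73 and the lowest value of the table with it, with overlap. Genes known to respond to STAT3 numbered 0 higher and 0 lower without overlap of 10 tested (median -0.09), those to STAT5 0 and 1 of 5 (median -0.17; Bcl2l1, a survival factor, at -0.32), and those to STAT6 0 and 1 of 7 (median 0.01; Chil3).

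Among the plotted interferon-stimulated genes, the other members also separated by library in most cases. Irf7, which amplifies interferon production, measured 3.86, 3.07 and 3.15 log2 CPM without drug and 2.63, 1.99, 2.50 and 2.17 with it. Isg15, a ubiquitin-like modifier, measured 2.72, 2.68 and 2.94 without drug and 1.05, 2.01, 2.22 and 2.31 with it. Ifit3, an antiviral RNA-binding protein, measured 1.99, 2.33 and 1.98 without drug and 1.46, 0.73, 0.26 and 1.09 with it. For these 3 genes the groups did not overlap, and the differences were -1.03, -0.88 and -1.21. Not all members did so: Ifit1, a cap-binding relative of Ifit3, measured 1.83, 2.07 and 1.50 without drug and 1.56, 1.10, 1.51 and 1.36 with it, which overlapped, and Herc6, an ISG15 ligase, measured 4.75, 4.34 and 4.59 without drug and 4.65, 4.75, 4.63 and 4.74 with it. Cxcl10, Herc6 and Ifi44 were the 3 members above 0, at 0.38, 0.13 and 0.03. Of the 20, Usp18, Oas3 and Oas1a passed in the NTC fit, where 0.0897% of all genes tested were lower.

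**Figure D3:**
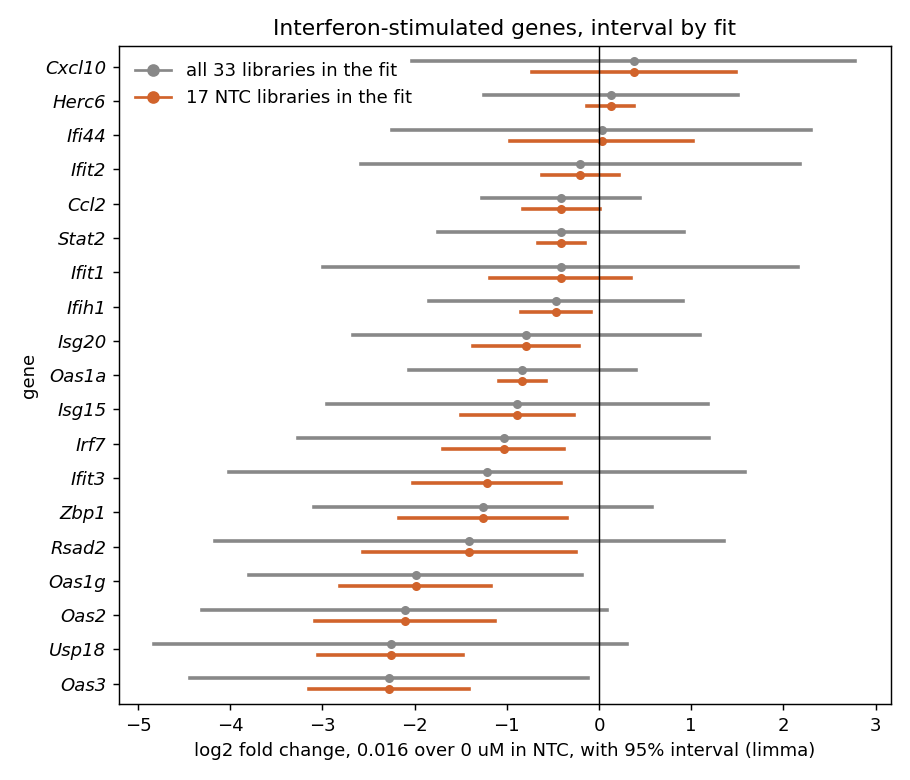
Log2 fold change of 19 interferon-stimulated genes at 0.016 against 0 uM, with limma's confidence interval from the fit of all 33 libraries (grey) and of the 17 NTC libraries (orange). The fold change is the same in both; the Usp18 interval runs from -4.83 to 0.30 in grey and from -3.05 to -1.48 in orange.

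A further list held 48 type I interferon-stimulated genes, of which 45 were tested. Of these, 40 were below 0, 25 were lower and 0 higher without overlap, against 5.48% lower and 4.99% higher among all genes tested, at a median of -0.37. Oasl2, an OAS-like protein, measured 3.46, 2.71 and 2.04 log2 CPM without drug and 0.34, 0.44, 1.52 and 0.05 with it, a difference of -2.15 without overlap. Adar, the RNA-editing enzyme the study disrupts in its other line, is itself on this list and measured 5.12, 4.94 and 4.69 without drug and 4.31, 4.58, 4.40 and 4.34 with it, also without overlap. By contrast Ifitm3, an abundant antiviral membrane protein, measured 11.08, 11.22 and 11.17 without drug and 11.08, 11.19, 11.13 and 11.06 with it, and Mx1 measured 0.83, 0.28 and 1.02 without drug and 1.15, 0.49, -0.02 and 0.62 with it. Both overlapped. Of the 45, 0 passed over 33 libraries, 3 over the 7 libraries, 3 over the 32 libraries and 2 with library weights, all lower. Among all 11152 genes tested, 0.0628% were lower over the 7 libraries, 0.0986% over the 32 libraries and 13 genes with library weights. In the NTC fit, where 0.0897% of all genes tested were lower, 5 passed, all lower (Slfn1, Ly6e, Irf9, Lgals3bp and Slfn8), and of these Irf9 and Slfn8 were past the limit in 0 of 7 runs with a library left out.

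Antigen presentation genes of MHC class I were below 0 in 13 of 15 cases, and 5 of 15 were lower and 0 higher without overlap, against 5.48% lower and 4.99% higher among all genes tested, at a median of -0.18. H2-K1, a heavy chain, measured 8.78, 8.23 and 8.22 log2 CPM without drug and 7.98, 7.76, 7.84 and 7.90 with it, and B2m, the light chain, measured 10.74, 10.55 and 10.68 without drug and 10.25, 10.26, 10.23 and 10.31 with it. Neither overlapped. The difference was -0.54 for H2-K1 and -0.39 for B2m, and among these 15 genes only H2-K1 passed in any of the 17-library, 7-library and 32-library fits, with an adjusted p of 0.0381 in the 32-library fit, which was its lowest over the alternatives, and 1.00 over 33 libraries. In the 32-library fit 0.0986% of all genes tested were lower. The heavy chain H2-D1 overlapped, at 12.36, 10.56 and 11.41 without drug and 11.66, 11.57, 11.73 and 10.54 with it. Of 16 genes tested among the interferon-gamma-inducible GTPases and their companions, Gbp4, Gbp5, Iigp1 and Gm4951 had at most 3 counts in each of the 7 libraries. Of the 12 others, 1 was lower and 0 higher without overlap, at a median of -0.17; it was Irgm1, at 4.03, 3.97 and 3.81 without drug and 3.33, 3.56, 3.49 and 3.58 with it. Of 4 MHC class II genes tested, 0 separated the groups (median -0.07).

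Promoters are shown for 4 plotted genes that were lower without overlap (Oas3, Oas1a, Isg15 and Ifit3) and for Ifit1, whose groups overlapped, so that their interferon response elements can be compared. Each runs from 250 bases before to 50 after the start of the gene, 5′ to 3′ along its strand, from RefSeq on GRCm38.p6: Oas3 at chr5:120777610-120777909 (minus), Oas1a at chr5:120907476-120907775 (minus), Isg15 at chr4:156200769-156201068 (minus), Ifit3 at chr19:34583279-34583578 (plus) and Ifit1 at chr19:34640639-34640938 (plus). Capitals mark the core of the interferon-stimulated response element, GAAA, any 2 bases and GAAA, searched on both strands, so that on the opposite strand it reads TTTC, any 2 bases and TTTC; capitals that run on hold overlapping matches.
Oas3: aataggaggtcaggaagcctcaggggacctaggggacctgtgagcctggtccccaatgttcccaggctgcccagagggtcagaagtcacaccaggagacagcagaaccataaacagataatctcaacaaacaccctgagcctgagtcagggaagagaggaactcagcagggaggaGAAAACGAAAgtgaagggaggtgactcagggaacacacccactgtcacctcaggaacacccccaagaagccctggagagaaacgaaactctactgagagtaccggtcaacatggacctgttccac
Oas1a: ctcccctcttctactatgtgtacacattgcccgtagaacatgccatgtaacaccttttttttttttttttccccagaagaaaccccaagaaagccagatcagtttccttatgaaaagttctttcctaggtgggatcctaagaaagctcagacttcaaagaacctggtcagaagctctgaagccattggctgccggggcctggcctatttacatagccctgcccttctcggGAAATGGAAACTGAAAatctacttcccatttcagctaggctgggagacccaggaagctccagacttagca
Isg15: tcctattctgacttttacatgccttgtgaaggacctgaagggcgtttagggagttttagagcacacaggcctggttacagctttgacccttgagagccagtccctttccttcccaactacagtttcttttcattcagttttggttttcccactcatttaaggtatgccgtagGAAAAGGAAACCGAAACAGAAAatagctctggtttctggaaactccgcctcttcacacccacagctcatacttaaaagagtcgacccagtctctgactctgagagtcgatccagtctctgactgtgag
Ifit3: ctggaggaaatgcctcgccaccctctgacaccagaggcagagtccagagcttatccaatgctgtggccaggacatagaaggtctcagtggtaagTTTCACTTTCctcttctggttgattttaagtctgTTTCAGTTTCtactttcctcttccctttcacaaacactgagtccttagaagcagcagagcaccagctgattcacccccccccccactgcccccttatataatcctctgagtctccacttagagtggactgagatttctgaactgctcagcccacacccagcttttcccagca
Ifit1: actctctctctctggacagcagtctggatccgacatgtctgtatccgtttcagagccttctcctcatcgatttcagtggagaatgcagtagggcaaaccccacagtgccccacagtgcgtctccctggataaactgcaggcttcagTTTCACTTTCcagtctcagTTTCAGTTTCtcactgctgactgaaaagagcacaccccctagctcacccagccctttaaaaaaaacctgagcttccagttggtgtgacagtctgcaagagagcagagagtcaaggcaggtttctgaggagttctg
Oas3 held 1 match, Oas1a 2 that overlap, Isg15 3 that overlap, and Ifit3 and Ifit1 2 each. Of 27025 promoters of this length, 3.99% held the motif, and 10 of 15 plotted genes with a known promoter did (66.7%). It was in 7 of 9 whose groups were lower without overlap and in 3 of the 6 others, so genes with overlapping libraries carried it too. It was in 4 of 8 genes lower in the NTC fit, in 0 of 2 higher ones, in 12 of 32 further interferon-stimulated genes and in 0 of 19 proliferation genes. The gamma-activated site TTC, any 3 bases and GAA, also read on both strands, was in 9.55% of all promoters and in 3 of the 15. The motifs differ in their letters but their windows can overlap, and a match is a description of letters, not of a bound site.

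Of 22 proliferation genes tested at 0.016 against 0 uM, 0 passed over 33 libraries, 20 were above 0, and 11 were higher and 0 lower without overlap, against 4.99% higher and 5.48% lower among all genes tested, at a median of 0.55. Their mean log2 CPM was 6.09, 6.43 and 6.26 without drug and 6.66, 6.95, 6.97 and 6.58 with it, and the lowest treated library was above the highest untreated one. Mki67, a marker of dividing cells, measured 6.44, 6.88 and 6.57 without drug and 7.31, 7.62, 7.51 and 7.13 with it, a difference of 0.76. Ccnb1, a mitotic cyclin, measured 6.06, 6.71 and 6.43 without drug and 7.10, 7.68, 7.63 and 7.04 with it, a difference of 0.96. Cdc20, an activator of the anaphase-promoting complex, measured 4.13, 4.56 and 4.64 without drug and 5.41, 5.84, 5.81 and 5.21 with it, a difference of 1.12. None passed over 33 libraries or over the 17 NTC libraries, Ccnb1 and Cdc20 passed over the 32 libraries (adjusted p = 0.0484 and 0.0381; over the alternatives, from 0.0253 and 0.0230 to 1.00), and 7 of the 22 passed with library weights; in those fits 6 and 31 of all 11152 genes tested were past the limit and higher. The replication genes Mcm2 and Mcm3 overlapped, at -0.17 and -0.03. In bulk RNA, more cells of a kind and more RNA per cell cannot be told apart.

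The mean log2 CPM of the proliferation genes averaged 6.26 at 0 uM, 6.77 at 0.0006 uM, 6.79 at 0.016 uM and 6.74 at 0.4 uM, and each dose is set against the same 3 untreated libraries. At 0.0006 uM the libraries were at 6.59, 6.81 and 6.92, within the range of those at 0.016 uM. The interferon-stimulated list was 2.91, 3.31 and 3.45 at 0.0006 uM, which spans the untreated values and lies above the treated ones. At 0.0006 against 0 uM, 11 of 22 proliferation genes were higher and 0 of 20 plotted interferon-stimulated genes were higher or lower without overlap, against 5.91% higher and 7.07% lower among all genes tested. At 0.4 uM the interferon list was 1.58, 1.33, 1.59 and 1.48 and at 10 uM it was 0.96, 1.15 and 1.00, while the proliferation list was 6.66, 6.91, 6.88 and 6.50 at 0.4 uM and 7.24, 7.59 and 7.01 at 10 uM.

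**Figure D4:**
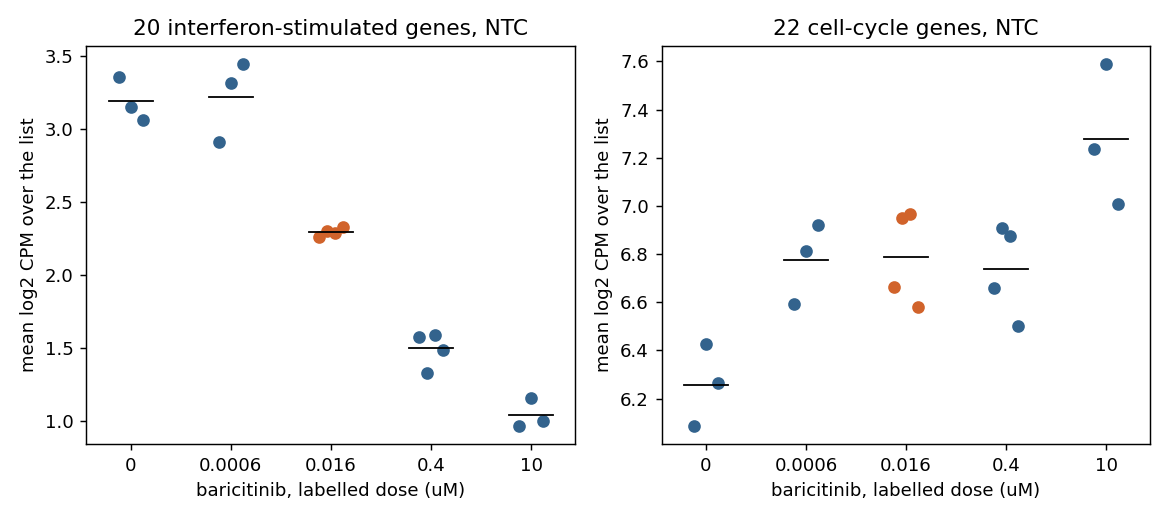
Mean log2 CPM of the 20 plotted interferon-stimulated genes (left) and of 22 proliferation genes (right) in each NTC library by labelled dose, with a line at each group's mean (orange: 0.016 uM). On the left the groups at 0.016, 0.4 and 10 uM follow each other downward without overlap; on the right the 4 libraries at 0.016 uM, at 6.58 to 6.97, overlap those at 0.0006 uM.

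Against 0.0006 uM, the dose below, the libraries at 0.016 uM were lower without overlap for 13 of 20 plotted interferon-stimulated genes and higher for 0, against 2.65% lower and 2.33% higher among all genes tested; the list's median was -0.79. The further interferon list had 18 of 45 lower and 0 higher (median -0.43), and the proliferation list had 1 of 22 lower and 0 higher (median 0.04). Usp18 averaged 3.64 log2 CPM at 0.0006 uM and 1.42 at 0.016 uM, a difference of -2.23. In limma over 33 libraries 0 genes (0%) passed and 218 had an unadjusted p below 0.05. Over the 17 NTC libraries 7 passed, all lower: Slfn1, Oas1a, Ly6e, Lgals3bp, Phf11b, Slfn4 and Usp18. Over the 32 libraries and over the groups of the comparison 0 passed, while 1 passed with library weights and 3 without a filter, all lower. This comparison shares its treated libraries with the one against 0 uM, but its controls are other libraries.

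At 0.4 uM, the dose above, against 0.016 uM, 9 of 20 plotted genes were lower and 0 higher without overlap, against 1.89% lower and 1.49% higher among all genes tested, at a median of -0.41; 0 of 20 passed over 33 libraries, and 19 of 45 further interferon-stimulated genes were lower (median -0.35). Oas3 averaged 4.32 log2 CPM at 0 uM, 2.04 at 0.016 uM, -0.11 at 0.4 uM and -0.97 at 10 uM. Ly6e averaged 9.04, 8.37, 8.07 and 8.68 at those doses, so its lowest mean was not at the highest dose. The limma count for 0.4 against 0.016 uM was 0 (0%) over 33 libraries, with 239 genes at an unadjusted p below 0.05, and 7 over the 17 NTC libraries, among them Irf9, Oas1a, Lgals3bp and Oas2, each lower. It was 5 over the 32 libraries and over the groups of the comparison, and 8 with replicate number or library number as a block, all lower, and 3 without a filter, all higher. In the 33-library fit, 1542 genes (13.8%) passed at 10 against 0 uM, 1 gene at 0.4 against 0 uM and 0 at 0.0006 against 0 uM, with 345 at an unadjusted p below 0.05 in the last; these share the untreated libraries.

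Adar KO macrophages, made with an Adar guide (sgRNA #1) in ER-Hoxb8 cells, were compared at the same doses with 3 libraries each. In them the interferon list was not lower at 0.016 uM. Its mean log2 CPM was 7.46, 7.43 and 7.46 without drug and 7.73, 7.70 and 7.44 with it. Of the 20 plotted genes 2 were lower and 4 higher without overlap, against 12.8% lower and 12.8% higher among all genes tested, at a median of 0.30. Of the 45 further interferon-stimulated genes 4 were lower and 17 higher without overlap, also at a median of 0.30. Of the 15 MHC class I genes 1 was lower and 5 higher (median 0.19). In limma over 33 libraries, 692 genes (6.21%) passed in Adar KO, 255 higher and 437 lower, and 17 of them (0.152%) had a log2 fold change of at least 2. Slfn1 measured 8.47, 8.35 and 8.66 without drug and 9.47, 9.47 and 8.84 with it. The difference between the dose effects of the lines was tested directly. In limma over 33 libraries 1 gene (0.00897%) had a different effect, Dapk1, a death-associated kinase, and 1107 had an unadjusted p below 0.05. Over the 13 libraries of these 4 groups 22 genes passed, 17 with a higher and 5 with a lower effect in Adar KO, among them Slfn1, Usp18, Oas1a, Irf9 and Ly6e, and over the 32 libraries 5 passed, 4 higher and 1 lower. The split depended on the fit: with replicate number as a block it was 4 higher and 9 lower. For Slfn1 the effect in Adar KO minus that in NTC was 2.82 log2 units, with a standard error of 1.30 and an adjusted p of 0.473 over 33 libraries.

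Dapk1 measured 1.25, 0.39 and 0.92 log2 CPM in untreated NTC libraries and 0.94, 1.36, 1.37 and 1.03 at 0.016 uM, which overlapped. In Adar KO it had 12.7 to 16.8 estimated counts without drug and 0 in all 3 libraries at 0.016 uM, at least 4.58-fold lower when 3 counts are allowed in each. Dapk1 was named after its values were seen. The count of genes with different effects was 0 without untreated NTC replicate 2, 12 (4 higher, 8 lower) without untreated Adar KO replicate 3 and 2 (1 higher, 1 lower) without Adar KO replicate 3 at 0.016 uM; it was 0 with a mean CPM above 5 or with log2(CPM + 1), 13 with replicate number and 29 (24 higher, 5 lower) with library number as a block, and 420 (228 higher, 192 lower) with library weights.

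Apart from list membership, 5 genes in each direction were named for the smallest unadjusted p, and all missed the test. Chil3, a secreted chitinase-like protein of alternatively activated macrophages, had the smallest: it measured 3.79, 3.20 and 3.67 log2 CPM without drug and 2.11, 2.43, 2.35 and 2.75 with it, a difference of -1.15 (unadjusted p = 1.5e-05, adjusted p = 0.166, and 0.0033 to 1.00 over the alternatives). Cux2, a homeobox factor, had the largest difference among the 12 genes of the NTC fit, 2.96, and measured -0.85, -1.09 and -0.80 without drug and 2.15, 2.23, 1.79 and 2.02 with it. Neither gene's groups overlapped. Cux2 had at most 7 estimated counts in an untreated library, its 3 values at 0.0006 uM were 1.39, 0.90 and -1.38, and at 10 uM it averaged -1.05. Also lower without overlap were P2rx1 (-0.91), Nhlrc3 (-0.49), Orm1 (-1.51) and Ampd3 (-1.33), and higher without overlap were Tnfsf14 (1.05), Cenpl (0.61) and Stim2. Stim2 was at the lowest value of the table in 2 untreated libraries and at 1.15 log2 CPM in the other, against 1.73, 2.09, 1.68 and 1.23 with drug, so no fold change is given. Ccdc14 (1.26) overlapped. Ampd3 averaged 2.70 at 0.0006 uM, nearer to its mean of 2.36 at 0.016 uM than to 3.69 at 0 uM, and Tnfsf14 averaged 2.17 at 0.0006 uM and 2.19 at 0.016 uM.

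Macrophage identity genes lay near their untreated levels. Of 13 tested, 2 were lower and 0 higher without overlap, against 5.48% lower and 4.99% higher among all genes tested, at a median of -0.03, which changed sign among the alternatives. The lower ones were Cd68, a lysosomal glycoprotein, at -0.14, and Msr1, a scavenger receptor, at -0.20. Of 10 macrophage transcription factors, 1 was higher and 0 lower without overlap, at a median of 0.04. Maf, which restrains self-renewal of macrophages, overlapped, at 3.34, 3.46 and 3.11 without drug and 3.46, 4.21, 4.30 and 3.49 with it.

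Of 7 classical monocyte genes tested, 4 were lower and 1 higher without overlap, against 5.48% lower and 4.99% higher among all genes tested, at a median of -0.34. Plac8, a small cysteine-rich protein, measured 0.54, 0.47 and 0.10 log2 CPM without drug and -0.68, -0.56, -0.35 and -0.83 with it, and Ccr2, a chemokine receptor, measured 7.94, 8.22 and 8.11 without drug and 8.25, 8.25, 8.28 and 8.27 with it. Neither overlapped, and the differences were -0.97 and 0.17. Chil3 and Ly6c2 (-0.33) were also lower. The monocyte list summed to 1130, 1416 and 1321 CPM without drug and 1404, 1571, 1617 and 1422 CPM with it, and F13a1, a clotting factor, was its most abundant member.

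Markers of other myeloid cells were low. Neutrophil markers summed to 100.3, 79.3 and 84.1 CPM without drug and 72.5, 49.6, 59.4 and 83.2 with it. S100a8 was the most abundant, Ly6g, S100a9, Ngp, Ltf and Retnlg had at most 3 counts in each library, and 0 of 5 tested separated the groups, against 5.48% lower and 4.99% higher among all genes tested (median -0.43). Osteoclast markers summed to 119.8, 101.9 and 121.9 CPM without drug and 96.7, 86.7, 90.3 and 104.6 with it, with Atp6v0d2 the most abundant and Acp5, Calcr and Oscar at most 3 counts, and 0 of 5 tested separated the groups (median -0.18). Dendritic cell markers summed to 13.8, 14.2 and 13.4 CPM without drug and 9.70, 9.68, 6.92 and 12.4 with it. Itgax, an integrin also made by macrophages, was the most abundant and the 1 gene of 2 tested that was lower without overlap, at -0.64 (list median -0.24), and Clec9a, Ccr7 and Cd209a had at most 3 counts. Progenitor markers summed to at most 1.85 CPM, with Cd34 the most abundant, Elane and Ms4a3 at most 3 counts, and 1 gene tested, which overlapped (-0.07). Sums in the mast cell and basophil, lymphoid and fibroblast lists were at most 0.207, 1.66 and 0.853 CPM, and 0 of their genes were tested. Their part in the result was not tested.

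Inflammatory and stress genes included members of both directions. Of 11 inflammatory cytokines and enzymes, 0 separated the groups (median -0.06). Of 13 chemokines, 3 were lower and 0 higher without overlap, against 5.48% lower and 4.99% higher among all genes tested, at a median of 0.20. They were Ccl6, at 10.03, 9.84 and 10.14 log2 CPM without drug and 9.55, 9.45, 9.35 and 9.59 with it, and Ccl3 and Ccl4, inflammatory chemokines, at -0.55 and -0.35. Of 11 immediate early genes, 2 were lower and 0 higher (median -0.26): Egr1, a growth factor response gene, at 1.17, 1.78 and 1.72 without drug and 0.70, 0.83, 0.54 and 0.69 with it, and Ier3. Of 8 p53 target genes, 2 were higher and 0 lower (median 0.19), and all 8 were above 0. These were Cdkn1a, an inhibitor of cyclin-dependent kinases, at 8.00, 8.21 and 7.92 without drug and 8.41, 8.44, 8.46 and 8.25 with it, and Ccng1. Of 12 integrated stress response genes, Asns and Phgdh, enzymes of amino acid synthesis, were higher and Slc7a11, a cystine transporter, was lower (median -0.02). Of 7 NRF2 target genes, Slc7a11 and Gclm were lower and 0 higher (median -0.25). At 0.0006 against 0 uM, with the same untreated libraries, 4 of 7 NRF2 target genes were lower and 0 higher. There 2 of 8 p53 target genes were higher and 0 lower, and 7 were above 0. Of 11 immediate early genes, 2 were lower there and 0 higher. The shares of all genes tested there were 7.07% lower and 5.91% higher. At 0.016 against 0.0006 uM 0 NRF2 target genes were lower and 1 higher, against 2.65% lower and 2.33% higher among all genes tested. In that comparison 0 p53 target genes and 0 immediate early genes separated the groups.

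Of 15 sterol synthesis genes, 2 were lower and 0 higher without overlap, against 5.48% lower and 4.99% higher among all genes tested (median -0.03), and Fdft1, a squalene synthase, was at -0.48. Of 6 cholesterol efflux genes, 1 was higher and 0 lower (median 0.10). It was Abca1, a cholesterol exporter, at 0.43, 0.64 and -0.49 log2 CPM without drug and 1.27, 1.36, 1.85 and 0.84 with it, and it averaged 1.83 at 0.0006 uM. Of 9 hypoxia-inducible genes, Slc2a1, Bnip3 and Pfkfb3 were lower and 0 higher (median -0.02). At 0.0006 against 0 uM, with the same untreated libraries, 3 of 9 were lower and 1 higher. The shares of all genes tested there were 7.07% lower and 5.91% higher. At 0.016 against 0.0006 uM 0 were lower and 0 higher, against 2.65% lower and 2.33% higher among all genes tested. Of 13 mitochondrially encoded genes, mt-Co1 and mt-Atp8 were lower and 0 higher, 12 were below 0, and the median was -0.11. At 0.0006 against 0 uM 4 of these 13 were lower and 0 higher, and all 13 were below 0. At 0.016 against 0.0006 uM 0 of the 13 separated the groups. Of the 15 sterol genes, 2 were lower and 0 higher at 0.0006 against 0 uM. At 0.016 against 0.0006 uM 0 sterol genes were lower and 1 higher. Among the alternatives, the medians of the sterol, efflux, hypoxia, integrated stress response, chemokine, STAT6-responsive and macrophage transcription factor lists changed sign.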

How the data were processed

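Total RNA from mouse ER-Hoxb8 macrophages was sequenced in 33 baricitinib libraries of 92 in the series, and 7 of them, 3 without drug and 4 at 0.016 uM, made up the comparison. The values are log2 CPM (log2 of TMM-normalized CPM), as deposited by the authors. The authors quantified reads with kallisto 0.46.0, checked them with FastQC and MultiQC, and used edgeR and limma, without versions given for these. Of 29957 entries in the deposited table, 1 had no gene name and was left out; 0 columns were left out. The 33 libraries share 1 lowest value, -2.78, which stands for 0 reads, and CPM were recovered by subtracting it on the linear scale. Counts were estimated from TPM by the authors, so no count test was run.

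Groups came from the titles. Members and lists were chosen with earlier results of these data known. The 11152 genes that exceeded 1 CPM in 3 or more libraries were tested in limma 3.58.1 (R 4.3.3; trend in the variance prior) with 1 mean for each of 10 groups and Benjamini-Hochberg adjustment over all genes tested. The limit was an adjusted p below 0.05, with and without a log2 fold change of at least 2. In limma tested on simulated data, of 100 genes shifted by 1 or 2 log2 units, 64% or 90% were called. These shares cannot be carried over to the plotted interferon-stimulated genes, whose recovery was not tested separately and whose spread was wider. Over all 33 libraries the median residual SD was 0.28 for all genes tested and 1.46 for that list, and it was 1.78 for Usp18. With 4 against 3 libraries, an exact permutation can give no two-sided p below 0.0571. Depth was 6.16 to 16.5 M estimated counts in the 7 libraries, and genes with at most 3 counts in every library of both groups were given no fold change. Groups were said not to overlap when every library of 1 lay above every library of the other.

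Named genes were to be the 10 with the largest change in each direction past the limit, filled to 5 by the smallest unadjusted p, with up to 8 members by role from each list. Lists were the interferon-stimulated and macrophage identity genes the study plotted, further interferon-stimulated genes, interferon-gamma-inducible GTPases, MHC classes I and II, JAK ligands, receptors, kinases, STATs, feedback inhibitors, STAT3, STAT5 and STAT6 targets, macrophage transcription factors, monocyte, inflammatory, chemokine, proliferation, sterol, efflux, hypoxia, integrated stress, p53, NRF2, immediate early and mitochondrial genes, and markers of progenitors, neutrophils, dendritic cells, osteoclasts, mast cells and basophils, lymphoid cells and fibroblasts. Alternatives were the libraries in the fit, filters (mean CPM above 5, or none), log2(CPM + 1), median centring, quantile normalization, library weights, a robust prior, a fold limit of 1, replicate number or library number as a block, and leaving out each library. Promoters came from RefSeq on GRCm38.p6. Tables and figures used Python 3.11.15, numpy 2.4.6, pandas 2.3.3 and matplotlib 3.10.9.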

Additional observations from a re-analysis of the deposited data

Results flagged for a closer look

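The effect of 0.016 uM baricitinib on Dapk1 differed between the lines: the effect in Adar KO minus that in NTC was -3.48 log2 units (standard error 0.55, adjusted p = 0.00911, limma over 33 libraries). No gene passed this test without untreated NTC replicate 2 or with log2(CPM + 1), and with a mean CPM above 5 Dapk1 was not among the genes tested. The fitted value depends on the lowest value of the table, because all 3 Adar KO libraries at 0.016 uM had 0 counts. Dapk1 there was at least 4.58-fold lower than in the 3 untreated Adar KO libraries, with 3 counts allowed in each library. NTC libraries measured 1.25, 0.39 and 0.92 log2 CPM without drug and 0.94, 1.36, 1.37 and 1.03 with it, and the groups overlapped. Adar KO libraries at 0.4 uM measured 0.72, 1.13 and 1.02. Of 36 values tested for a library far from the other 3 at 0.016 uM, 0 were found.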

How the results depend on the processing

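The direction of the interferon-stimulated list held in all alternatives run. Counts of genes past the limit moved with the libraries in the fit and with library weights. In some comparisons they also moved with a block, the filter or log2(CPM + 1). At 0.016 against 0 uM, genes past the adjusted p numbered 0 over 33 libraries. They numbered 17 over 32 libraries (without Adar KO replicate 2 at 0.4 uM), 8 over the 7 libraries, 12 over the 17 NTC libraries and 44 with library weights. With a log2 fold change of at least 2 they numbered 0, 3, 4, 4 and 4 in the same order. Leaving out libraries gave 0 to 7 genes past the adjusted p and 0 to 2 with that fold change. With the replicate block or the library-number block, each over the 7 libraries, 0 genes were past the adjusted p. The 32-library fit and the leave-outs among the 17 NTC libraries were chosen after seeing the data. At 0.016 against 0.0006 uM the count was 7 over the 17 NTC libraries, 3 without a filter and 1 with weights. It was 0 over 32 libraries and over the groups of the comparison. At 0.4 against 0.016 uM it was 5 over 32 libraries, 5 over the groups of the comparison, 7 over the 17 NTC libraries, 8 with the replicate block, 8 with the library-number block and 8 with weights, of which 1 over the 17 NTC libraries was higher and the others lower, and 3 without a filter, all higher. For the difference between lines it was 5 over 32 libraries, 22 over the groups of the comparison (17 higher, 5 lower), 13 with the replicate block (4 higher, 9 lower), 29 with the library-number block (24 higher, 5 lower), 0 with a mean CPM above 5, 0 with log2(CPM + 1) and 420 with weights (228 higher, 192 lower); leaving out libraries gave 0 to 12. The list's median of -0.81 was -0.58 with log2(CPM + 1), which shrinks differences at low CPM, -0.88 with the replicate block and -0.78 with the library-number block; leaving out libraries gave -0.88 to -0.62. For the other moves the cause was not tested. Among 8471 values of 328 named genes, 77 passed the limit in an alternative and 400 had the other sign. Residuals of libraries with the same replicate number correlated at 0.03, -0.03 and -0.04. Those in the same run of library numbers correlated at 0.03, -0.03 and 0.04. Among pairs sharing neither number, values ran from -0.21 (untreated replicate 1 with treated replicate 4) to 0.20 (untreated replicate 2 with treated replicate 4). These values cannot show whether libraries were paired, and the blocks are given as alternatives alone. The 17-library fit was not run for the difference between lines, since it holds no Adar KO library. Depth limits genes near 3 counts, such as Ifnb1.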
